A study of Homo sapiens with 12 samples.

Results

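The clustered histone genes are the gene copies that encode the core histones H2A, H2B, H3 and H4 and the linker histone H1, and that sit together in a few blocks of the genome. Members were taken by symbol: every gene named HIST1 to HIST4 followed by its histone class and letter, with at least 1 count in at least 4 libraries, leaving out symbols that end in PS and a number, which mark pseudogenes. Of 57773 genes in the table, 89 matched the pattern, 13 of these ended in PS and a number, 19 fell under the count rule, and 57 remained as members. They were 5 H1, 13 H2A, 19 H2B, 10 H3 and 10 H4 genes, of which 46 belong to the HIST1 block on chromosome 6, 8 to HIST2 and 2 to HIST3 on chromosome 1, and 1, HIST4H4, lies on chromosome 12.

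The libraries came from A549, an established human lung adenocarcinoma cell line, in 3 groups of 4 biological replicates per the labels. Cells were reverse transfected at 50 nM with a non-targeting siRNA (control) or with one of 2 siRNAs against GOLM1, siGOLM1-1 or siGOLM1-2, with Lipofectamine RNAiMAX in every group, and RNA was taken 72 h later. GOLM1 encodes a Golgi membrane protein, and the comparisons ask which transcripts differ once it is knocked down. Whether replicates came from separate cultures or days is not stated beyond the word biological, so p-values measure the spread between these libraries. All groups are 1 cell line, and each siRNA can have effects of its own beside its target.

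Most histone proteins are needed when DNA is copied, and the clustered genes are known as replication-dependent: their transcription rises in S phase through the activator NPAT, which cyclin E and CDK2 switch on. Their mRNAs are known for ending in a short stem-loop, bound by the protein SLBP, in place of the poly(A) tail that other mRNAs carry. Some of these genes are also known to give polyadenylated mRNAs that run past the stem-loop. The libraries were made with a stranded mRNA kit, a type that captures poly(A) tails, so the counts describe mainly transcripts with a tail and not the whole histone mRNA pool.

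The stem-loops of the well measured members are shown first, because they mark where the tail-less form of each mRNA ends. Well measured means a mean of at least 1 CPM (counts per 1000000 counts, with library totals scaled by edgeR's TMM factors) over the 12 libraries, which held for 14 members. The 16 stem-loop bases are in capitals and the 5 bases on each side in lower case, 5′ to 3′ as DNA, from GENCODE release 29 transcripts, with 1 member shown for each of the 5 forms found among them.
HIST1H2AC: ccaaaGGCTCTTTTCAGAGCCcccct
HIST1H2BD: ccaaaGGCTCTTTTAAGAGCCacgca
HIST1H4H: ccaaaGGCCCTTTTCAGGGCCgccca
HIST1H3E: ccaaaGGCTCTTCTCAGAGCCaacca
HIST1H2AG: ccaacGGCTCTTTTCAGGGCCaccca

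The search asked for GGNNNTTNTNANNNCC on the sense strand with 6 pairing stem bases, G with T allowed. It matched annotated transcripts of 27 of the 57 members, 11 of the 14 well measured and 16 of the other 43, and of 86 of 19613 other protein-coding genes (0.438%, not matched on length). The commonest form, that of HIST1H2AC, was found in 13 members, and the form of HIST1H4H in 5, all H4 genes. Annotated transcripts of HIST1H2BK, HIST1H1C and HIST1H2BJ held no match, and some annotated models stop at the coding end, so no match says only that these letters are not in the annotated transcript. More than 100 bases were annotated after the stem-loop in 9 of the 14 well measured members, for example 1128 in HIST1H2AC and 1761 in HIST1H2AG, and in 12 of the other 43. Of the well measured members, 7 had a spliced annotated transcript, against 4 of the other 43. The median of the longest annotated transcript was 1094 bases among the well measured and 411 among the others. Annotated length also sets how many reads a gene can collect, and counts here were not divided by length.

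Histone reads were few. Library totals ran from 41617042 to 71344718 counts, and the 57 members took 0.0105% to 0.0242% of them. HIST1H2BK alone held 38.1% of all 122184 member counts, the first 5 members 82.8% and the 14 well measured 96.0%. The lowest count of a well measured member in any library was 20. Another 15 members passed edgeR's filter on low counts and were tested, giving 29 tested members, and 28 were not tested, none of which reached more than 15 counts in a library. The GOLM1 check came out as labelled: GOLM1 was at 344.5 to 378.1 CPM in controls, 37.5 to 38.9 with siGOLM1-1 and 44.6 to 53.4 with siGOLM1-2, log2 fold changes of -3.25 ± 0.07 and -2.95 ± 0.07. All 12 A549 markers looked at were expressed, and PTPRC, CD68, CD3E, HBB, HBA1 and VWF, which mark blood or endothelial cells, were at 0.142 CPM or less in every library. The other markers of other cells in the table, COL1A1, COL3A1 and ALB, were detected, and all 9 summed to 34.5 to 73.7 CPM in the controls, 48.8 to 93.7 with siGOLM1-1 and 25.6 to 39.0 with siGOLM1-2. Their part in the histone results was not tested. Control libraries 1 and 2 stood apart from 3 and 4. For 9 of the 14 well measured members both were higher than both others, with a median ratio of 1.17 over the 14. The share of all tested genes that separated this way was not counted, so the 9 of 14 is a description. The split was not limited to histone genes. Over all tested genes, deviations from the group mean correlated at 0.53 between 1 and 2 and at 0.64 between 3 and 4. Across the pairs the correlations were -0.81 to -0.77. The knockdown groups were not uniform either. Replicate 4 of siGOLM1-2 correlated at -0.76 to -0.48 with the rest of its group, which ranged from -0.02 to 0.29 among themselves. Replicate 1 of siGOLM1-1 was at -0.55 to -0.36, and the rest of that group at -0.31 to -0.07. Counts of the well measured members and some single results are also given against each control pair. Those of the other gene lists are not.

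The members' summed level was higher in both knockdown groups. It was 132, 127, 109 and 110 CPM in the 4 controls, 238, 247, 238 and 246 with siGOLM1-1, and 215, 219, 216 and 235 with siGOLM1-2. All 8 knockdown libraries lay above all 4 controls, and the lowest siGOLM1-1 library lay above the highest siGOLM1-2 library. The means were 119 ± 12.1 (SD, n = 4), 242 ± 5.08 and 221 ± 9.13 CPM, ratios to control of 2.03 and 1.85. Without HIST1H2BK the ratios were 2.21 and 1.80. The sum follows the 14 well measured members, whose own ratios were 2.07 and 1.90, while those of the other 43 were 1.29 and 1.04. Summed over classes, the siGOLM1-1 ratio was 3.55 for H1 and the siGOLM1-2 ratio 1.68, and for H2A the order was the other way round, 1.52 and 2.05. H2B stood at 1.96 and 1.84, H3 at 1.59 and 1.43, and H4 at 1.38 and 1.94. These sums are descriptions with no test. In bulk RNA, a change of RNA per cell and a change in the share of cells that hold the RNA cannot be told apart.

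**Figure D1:**
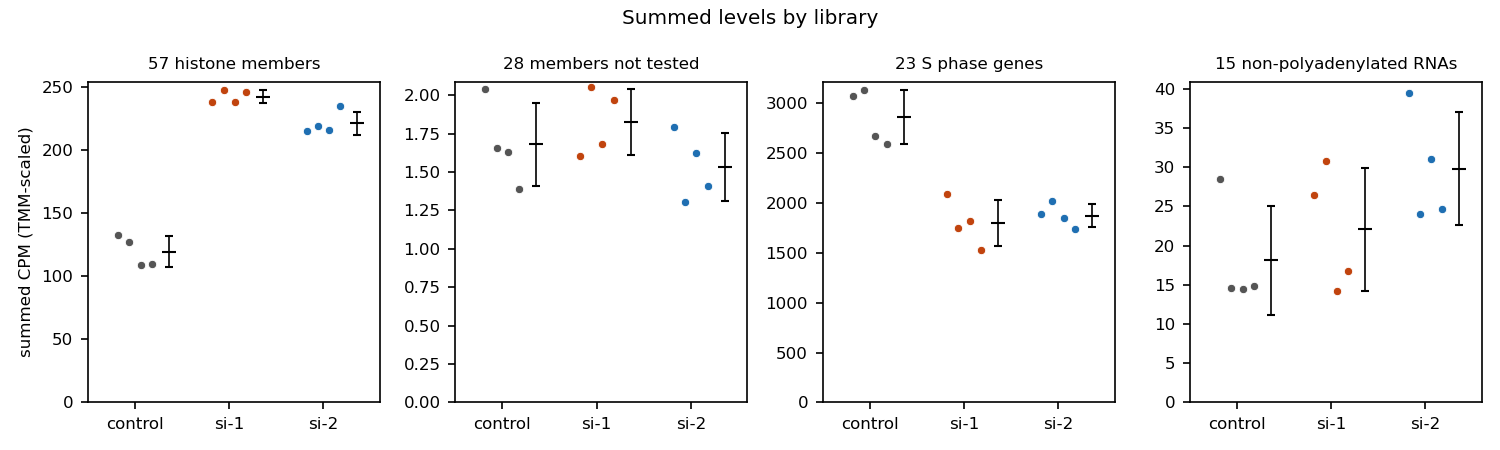
Summed TMM-scaled CPM (y axes, from 0) in each library of the control, siGOLM1-1 (si-1) and siGOLM1-2 (si-2) groups for the 57 histone members, the 28 untested members, 23 S phase genes and 15 RNAs without a poly(A) tail. Points are libraries, and bars the mean and SD of 4. The histone sum was near 119 CPM in controls and 242 and 221 CPM with the siRNAs, while the S phase sum was lower with both siRNAs than in the controls.

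Among the 14 well measured members, 11 were called higher with siGOLM1-1, 1 lower and 2 not called, and 13 were called higher with siGOLM1-2, none lower and 1 not called. A call is an adjusted p under 0.05 in edgeR's quasi-likelihood test over all 17532 genes tested. Over those genes, 23.7% were called higher and 23.8% lower with siGOLM1-1, and 21.8% higher and 23.2% lower with siGOLM1-2. The median log2 fold change of the 14 was 0.80 and 0.78, against -0.01 in both comparisons over all genes. Against control replicates 1 and 2 alone, 9 were called higher with siGOLM1-1 and 11 with siGOLM1-2, and against 3 and 4 alone, 11 and 10. The shares of all genes called in these smaller fits were not counted. The cut of 1 CPM uses all 12 libraries, so it could favour higher calls among the 14. HIST1H2BN (control mean 0.684 CPM) and HIST1H2AI (0.905) reached it through their knockdown libraries. HIST2H2AC (control mean 1.13 CPM), called lower with both siRNAs, missed it through its knockdown libraries. Of all 29 tested members, 17 were called higher and 2 lower with siGOLM1-1, and 15 higher and 1 lower with siGOLM1-2, 13 of them higher with both. The filter asks for 0.204 CPM (10 counts at the median library total) in enough libraries, and 9 of the 29 did not reach this in every control. These 9 hold 4 of the 17 higher calls and 2 of the 15, which the filter could favour, and the other 20 hold 13 and 13. Against control replicates 1 and 2 alone, 11 members were called higher with siGOLM1-1, all 11 among the 17. Both comparisons use the same control libraries, so they are not independent.

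**Figure D2:**
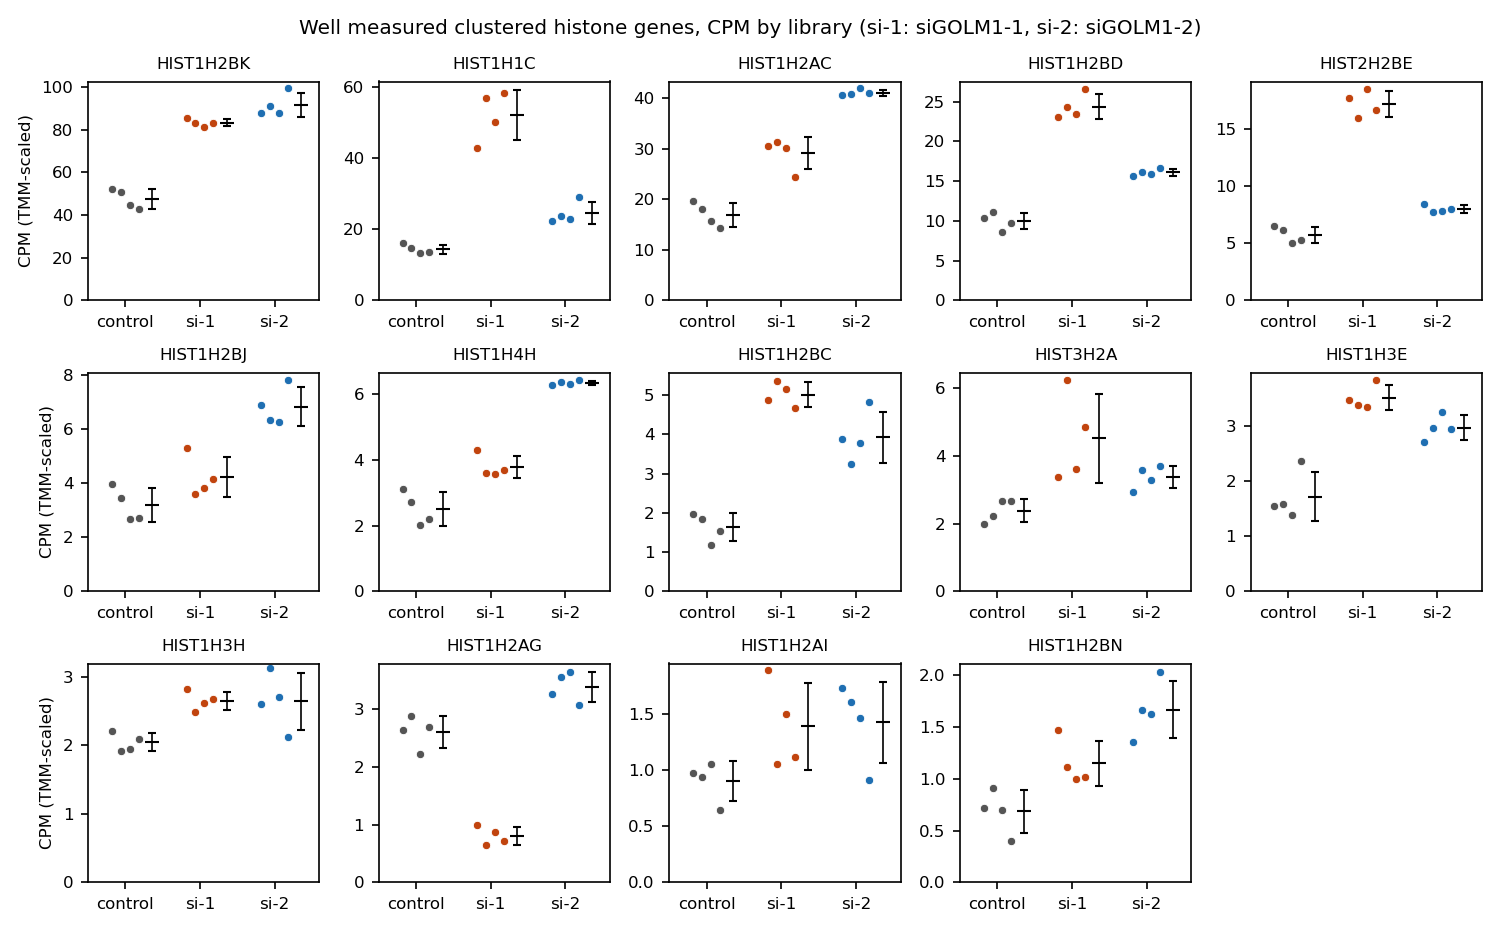
TMM-scaled CPM (y axes, from 0) of the 14 well measured members in each of the 12 libraries, grouped as control, siGOLM1-1 (si-1) and siGOLM1-2 (si-2). Points are libraries, and bars the mean and SD of 4. HIST1H1C, HIST1H2BD and HIST2H2BE were higher with siGOLM1-1 than with siGOLM1-2, HIST1H2AC, HIST1H2BJ and HIST1H4H lay the other way round, and HIST1H2AG was below the controls with siGOLM1-1.

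The linker histone gene HIST1H1C (ENSG00000187837) encodes H1.2, which binds DNA where it enters and leaves the nucleosome. It was at 16.0, 14.7, 13.2 and 13.7 CPM in the controls, 42.9, 56.9, 50.2 and 58.3 with siGOLM1-1, and 22.4, 23.8, 22.7 and 29.1 with siGOLM1-2. The 3 groups did not overlap, and siGOLM1-1 was the highest. The log2 fold change was 1.85 ± 0.12 (SE, n = 4 per group) with siGOLM1-1 (adjusted p = 4.19e-08) and 0.77 ± 0.11 with siGOLM1-2 (adjusted p = 0.000115). The siRNAs also differed from each other, by 1.09 ± 0.11 (adjusted p = 2.59e-06). Of the other 4 H1 members only HIST1H1E was tested, and it was not called, at log2 fold changes of -0.14 and -0.26 (adjusted p = 0.841 and 0.71).

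H2B, which pairs with H2A in the nucleosome, supplied the most counts. Of its 13 tested genes, 9 were called higher with siGOLM1-1 and 8 with siGOLM1-2, and none lower. Over all genes tested, 23.7% and 21.8% were called higher and 23.8% and 23.2% lower. Of the H2B calls, 3 and 2 are of genes not at the filter's level in every control. The 13 include HIST2H2BC and HIST2H2BD, whose RefSeq symbols mark pseudogenes. HIST1H2BK (ENSG00000197903) was at 52.1, 50.9, 44.5 and 42.9 CPM in the controls, 85.5, 83.1, 81.2 and 83.4 with siGOLM1-1, and 88.0, 91.3, 87.8 and 99.7 with siGOLM1-2. Every knockdown library was above every control. It rose by log2 0.81 ± 0.07 (adjusted p = 1.43e-06) and 0.95 ± 0.07 (adjusted p = 6.17e-07), and the siRNAs differed by -0.14 ± 0.07, which was not called (adjusted p = 0.128). Scaled by library totals alone, that difference was -0.27 and was called; there the median over all genes moved by -0.13. Of the 101-base windows of its annotated transcript, 27.8% were identical to a window of another gene, so part of its reads could have been assigned elsewhere. That transcript is 381 bases long, while RefSeq gives the gene a span of 8566, and bases outside the transcript were not compared.

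HIST1H2BD (ENSG00000158373) and HIST2H2BE (ENSG00000184678) are H2B genes that rose more with siGOLM1-1. HIST1H2BD was at 10.4, 11.1, 8.66 and 9.76 CPM in the controls, 23.1, 24.3, 23.4 and 26.6 with siGOLM1-1, and 15.6, 16.1, 15.9 and 16.7 with siGOLM1-2. HIST2H2BE was at 6.52, 6.13, 5.04 and 5.34 CPM in the controls, 17.7, 16.0, 18.5 and 16.7 with siGOLM1-1, and 8.44, 7.74, 7.83 and 8.05 with siGOLM1-2. For both genes the 3 groups were fully separate in the same order. The log2 fold changes of HIST1H2BD were 1.29 ± 0.09 and 0.69 ± 0.09 (adjusted p = 8.68e-08 and 2.83e-05), and the siRNAs differed by 0.60 ± 0.08 (adjusted p = 4.67e-05). Those of HIST2H2BE were 1.58 ± 0.10 and 0.48 ± 0.10 (adjusted p = 3.8e-08 and 0.00132), with a difference of 1.10 ± 0.10 (adjusted p = 4.95e-07).

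HIST1H2BJ (ENSG00000124635) and HIST1H2BC (ENSG00000180596) followed other patterns. HIST1H2BJ was at 3.98, 3.46, 2.67 and 2.72 CPM in the controls, 5.29, 3.61, 3.83 and 4.17 with siGOLM1-1, and 6.90, 6.35, 6.26 and 7.83 with siGOLM1-2. The siGOLM1-1 libraries overlapped the controls and the siGOLM1-2 libraries lay above both. It rose with siGOLM1-2 by log2 1.09 ± 0.16 (adjusted p = 0.000106), and with siGOLM1-1 the change was 0.40 ± 0.16 and was not called (adjusted p = 0.0547). That value was 0.19 against control replicates 1 and 2 alone and 0.66, which was called, against 3 and 4 alone. The siRNAs differed by -0.69 ± 0.16 (adjusted p = 0.00212).

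HIST1H2BC was at 1.96, 1.85, 1.19 and 1.55 CPM in the controls, 4.88, 5.37, 5.15 and 4.66 with siGOLM1-1, and 3.87, 3.25, 3.78 and 4.81 with siGOLM1-2. Both knockdown groups were above the controls and overlapped each other. It rose by log2 1.61 ± 0.17 and 1.26 ± 0.17 (adjusted p = 4.07e-06 and 4.42e-05), and the difference of 0.35 ± 0.16 was not called (adjusted p = 0.0734). HIST1H2BN (ENSG00000233822), at a mean of 1.17 CPM, was called higher with both, by 0.76 ± 0.24 and 1.29 ± 0.24 (adjusted p = 0.0176 and 0.00057). The first was not called in 2 of 21 alternatives, at 0.61 without siGOLM1-1 replicate 1 (adjusted p = 0.0541) and at 0.50 against control replicates 1 and 2 alone (adjusted p = 0.130). Its annotated exons overlap those of HIST1H2AK and HIST1H2AL, and the strand setting of the counting was not given, so its reads cannot be told from theirs with certainty.

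Among H2A genes, HIST1H2AC (ENSG00000180573) rose more with siGOLM1-2. It was at 19.7, 18.0, 15.7 and 14.3 CPM in the controls, 30.6, 31.4, 30.2 and 24.5 with siGOLM1-1, and 40.7, 40.8, 41.9 and 41.0 with siGOLM1-2. The 3 groups did not overlap, and the siGOLM1-2 libraries lay close together at the top. The log2 fold changes were 0.78 ± 0.10 and 1.28 ± 0.10 (adjusted p = 3.35e-05 and 7.54e-07), and the siRNAs differed by -0.49 ± 0.10 (adjusted p = 0.000962).

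HIST1H2AG (ENSG00000196787), another H2A gene, fell with siGOLM1-1. It was at 2.64, 2.89, 2.22 and 2.70 CPM in the controls, 0.996, 0.640, 0.871 and 0.720 with siGOLM1-1, and 3.27, 3.55, 3.64 and 3.08 with siGOLM1-2. The siGOLM1-1 libraries lay below all others, and the siGOLM1-2 libraries just above the controls. The log2 fold change was -1.68 ± 0.16 with siGOLM1-1 (adjusted p = 2.2e-06) and 0.38 ± 0.15 with siGOLM1-2, which was not called (adjusted p = 0.0555). The difference between the siRNAs, -2.06 ± 0.16 (adjusted p = 1.96e-07), was the largest in size among the 29 tested members.

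HIST3H2A (ENSG00000181218) was at 1.98, 2.21, 2.67 and 2.68 CPM in the controls, 3.37, 6.25, 3.63 and 4.85 with siGOLM1-1, and 2.95, 3.57, 3.29 and 3.70 with siGOLM1-2. Both knockdown groups lay above the controls, with a wide spread for siGOLM1-1. It rose by log2 0.92 ± 0.19 (adjusted p = 0.00134) and 0.50 ± 0.19 (adjusted p = 0.0471), and the second call was lost in 10 of 21 alternative analyses, 8 of them by leaving out a single library. HIST1H2AI (ENSG00000196747) was called only with siGOLM1-2, by 0.66 ± 0.25 (adjusted p = 0.0451), against 0.63 ± 0.25 with siGOLM1-1 (adjusted p = 0.0531). Its siGOLM1-2 call was lost in 10 of 21 alternatives, and 57.6% of its windows are identical to another gene, so its counts are uncertain. The siRNAs differed by -0.03 ± 0.24 (adjusted p = 0.917).

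H3 and H4 form the centre of the nucleosome. HIST1H3E (ENSG00000196966) was at 1.54, 1.59, 1.38 and 2.36 CPM in the controls, 3.46, 3.37, 3.34 and 3.83 with siGOLM1-1, and 2.70, 2.96, 3.25 and 2.94 with siGOLM1-2. The groups did not overlap. It rose by log2 1.03 ± 0.16 and 0.79 ± 0.16 (adjusted p = 0.000156 and 0.00138), and the difference of 0.24 ± 0.16 was not called (adjusted p = 0.212). HIST1H3H (ENSG00000203813) was at 2.20, 1.92, 1.95 and 2.09 CPM in the controls, 2.82, 2.48, 2.61 and 2.67 with siGOLM1-1, and 2.60, 3.13, 2.70 and 2.13 with siGOLM1-2. Its values with siGOLM1-2 reached down into the control range. Both log2 fold changes were 0.37 ± 0.14 and just passed the test (adjusted p = 0.0383 and 0.0411). The calls were lost in 13 and 12 of the 21 alternatives, 8 and 7 of them by leaving out a single library.

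The H4 gene HIST1H4H (ENSG00000158406) was at 3.12, 2.72, 2.01 and 2.19 CPM in the controls, 4.30, 3.60, 3.57 and 3.68 with siGOLM1-1, and 6.30, 6.36, 6.32 and 6.44 with siGOLM1-2. The 3 groups did not overlap, and siGOLM1-2 was the highest. It rose by log2 0.59 ± 0.14 and 1.34 ± 0.14 (adjusted p = 0.00319 and 6.01e-06), and the siRNAs differed by -0.75 ± 0.14 (adjusted p = 0.00037). The change with siGOLM1-1 ran from 0.38 to 0.86 over the 21 alternatives and was called in all of them.

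Compared directly, the siRNAs gave different levels for 7 of the 14 well measured members: HIST1H1C, HIST1H2BD and HIST2H2BE were higher with siGOLM1-1, and HIST1H2AC, HIST1H2BJ, HIST1H4H and HIST1H2AG were lower. Over all genes tested, 27.9% were called higher and 26.5% lower, so the 3 higher and 4 lower of these 14 are near the background. Over all 29 tested members the counts were 4 higher and 4 lower. The members' own shares were 13.8% each way, below those over all genes. The median difference of the 14 was -0.02, against 0.01 over all genes.

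**Figure D3:**
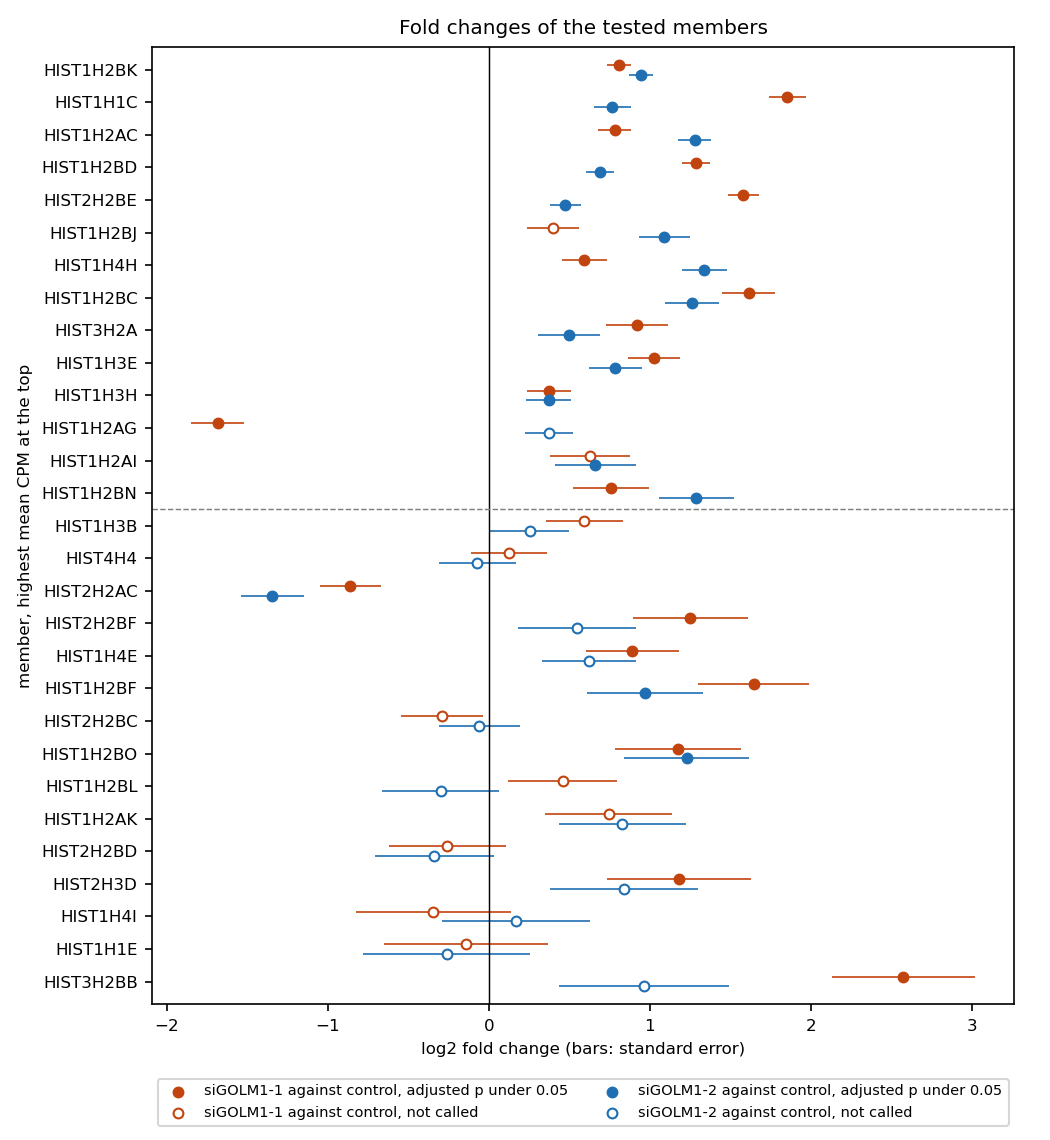
Log2 fold change against control (x axis, with standard error) of the 29 tested members, ordered by mean CPM, for siGOLM1-1 and siGOLM1-2. Filled points passed an adjusted p of 0.05, open points did not, and the dashed line separates the 14 well measured members from the others. HIST1H2AG was called lower with siGOLM1-1 alone and HIST2H2AC with both siRNAs.

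HIST2H2AC was the only tested member called lower with both siRNAs, and it is described because of its values. It was at 1.14, 1.30, 1.16 and 0.906 CPM in the controls, 0.583, 0.678, 0.648 and 0.572 with siGOLM1-1, and 0.525, 0.491, 0.411 and 0.338 with siGOLM1-2. The controls lay above all knockdown libraries. The log2 fold changes were -0.86 ± 0.19 and -1.34 ± 0.20 (adjusted p = 0.00206 and 9.83e-05). Of its windows, 16.9% are identical to another gene.

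HIST2H2AC lies head to head with HIST2H2BE. Of the members with a RefSeq promoter, 8 such pairs of opposite strand start within 500 bases of each other, a layout known for H2A and H2B genes, so 1 stretch is upstream of both genes. The stretches of 3 pairs are printed: in the first 2 the H2A gene was called lower with at least 1 siRNA and the H2B gene was not, and in the last both genes rose. They run 5′ to 3′ on the minus strand, from just before the H2A start to just before the H2B start, with the octamer (ATTTGCAT or ATGCAAAT) and the TATA letters (TATAAA or TTTATA) in capitals, from RefSeq on GRCh38.p14. The counts were made on hg19, and no coordinate was converted.
HIST2H2BE and HIST2H2AC, chr1:149886683-149886917: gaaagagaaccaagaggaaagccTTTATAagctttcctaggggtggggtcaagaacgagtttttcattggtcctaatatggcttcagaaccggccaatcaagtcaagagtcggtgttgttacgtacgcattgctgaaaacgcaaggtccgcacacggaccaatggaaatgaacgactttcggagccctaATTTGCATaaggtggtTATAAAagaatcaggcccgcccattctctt
HIST1H2BJ and HIST1H2AG, chr6:27132796-27133042: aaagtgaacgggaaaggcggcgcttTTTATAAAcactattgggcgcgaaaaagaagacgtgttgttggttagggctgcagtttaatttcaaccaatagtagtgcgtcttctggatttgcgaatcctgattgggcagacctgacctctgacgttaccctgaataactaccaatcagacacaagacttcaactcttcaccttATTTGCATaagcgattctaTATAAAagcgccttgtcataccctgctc
HIST1H2BC and HIST1H2AC, chr6:26123927-26124171: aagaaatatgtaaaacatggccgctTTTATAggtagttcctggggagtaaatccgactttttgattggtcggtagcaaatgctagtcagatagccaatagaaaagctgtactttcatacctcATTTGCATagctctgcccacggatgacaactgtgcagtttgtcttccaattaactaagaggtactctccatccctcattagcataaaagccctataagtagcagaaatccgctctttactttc

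The starts of the genes in these pairs are 235, 247 and 245 bases apart. All 3 stretches hold the octamer. On both strands of the 300-base window from 250 bases before to 50 after the start, the octamer was found in 17 of 46 members with a promoter (37.0%), against 2.19% of 27305 genes. All 17 were H2A or H2B genes, 8 of 12 and 9 of 13, and none of the 21 others had it. TATAAA was found in 31 of the 46 (67.4%, against 14.0% of all) and CCAAT in 39 (84.8%, against 39.7%). A head-to-head pair shares much of its window, so its genes are not separate cases, and a match is a description of letters and not of a bound factor.

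In the 3 pairs shown, which were picked with their calls known, the ratio of the genes lay outside the control range in every siGOLM1-1 library. HIST2H2BE over HIST2H2AC was 5.72, 4.72, 4.33 and 5.89 in the controls, 30.4, 23.6, 28.6 and 29.2 with siGOLM1-1, and 16.1, 15.8, 19.0 and 23.8 with siGOLM1-2. In this pair the H2B gene was called higher and the H2A gene lower with both siRNAs. HIST1H2BJ over HIST1H2AG was 1.51, 1.20, 1.20 and 1.01 in the controls, 5.31, 5.65, 4.40 and 5.79 with siGOLM1-1, and 2.11, 1.79, 1.72 and 2.54 with siGOLM1-2. HIST1H2BC over HIST1H2AC was between 0.0754 and 0.108 in the controls, between 0.160 and 0.190 with siGOLM1-1, and between 0.0797 and 0.117 with siGOLM1-2. In this last pair both genes rose with both siRNAs, and the siGOLM1-2 ratios overlapped the controls, with means of 0.0956 and 0.0964. In another pair, HIST1H2AK and HIST1H2BN, whose annotated exons overlap, the log2 fold changes with siGOLM1-1 were 0.75 (not called) and 0.76. With siGOLM1-2 those of this pair were 0.83 (not called) and 1.29. For HIST1H2BL and HIST1H2AI they were 0.46 and 0.63 with siGOLM1-1, neither called. With siGOLM1-2 that pair was at -0.30 (not called) and 0.66. The ratios were not tested, and they are ratios of CPM that were not divided by length.

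**Figure D4:**
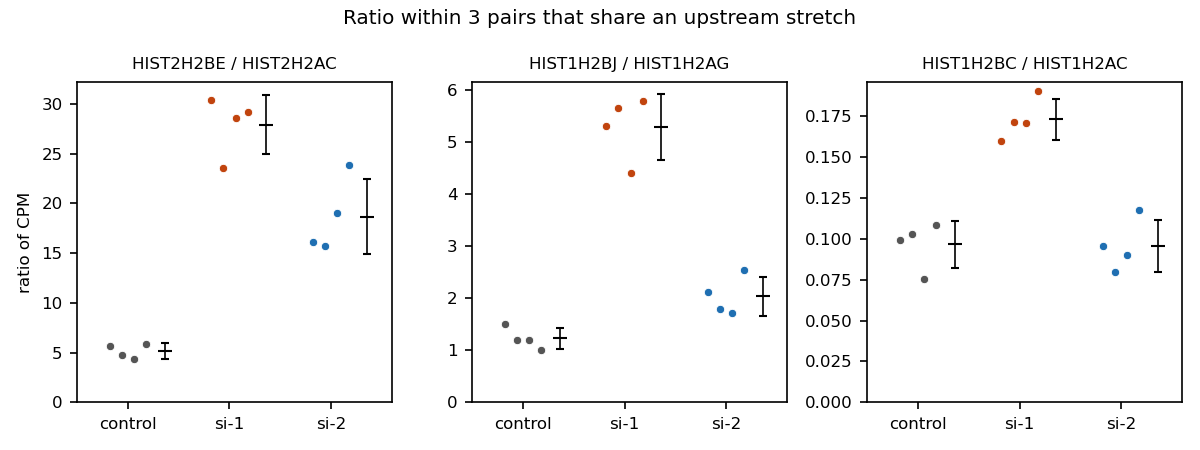
Ratio of CPM (y axes, from 0) of the H2B gene to the H2A gene in 3 head-to-head pairs, in each of the 12 libraries, grouped as control, siGOLM1-1 (si-1) and siGOLM1-2 (si-2). Points are libraries, and bars the mean and SD of 4. The HIST2H2BE to HIST2H2AC ratio was at most 5.89 in the controls and at least 15.8 in the knockdown libraries.

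The other pair on chromosome 1, HIST3H2A and HIST3H2BB, is 229 bases apart. HIST3H2BB, an H2B gene, had a mean of 0.0477 CPM in the controls and passed the filter through its siGOLM1-1 libraries alone, where it was at 0.213 to 0.423 CPM. It had to be high there to be tested, so its call with siGOLM1-1 is no support for a difference and its values are a description. Also called higher with siGOLM1-1 were HIST2H2BF at 1.25 and HIST1H4E at 0.89, both at the filter's level in every control. HIST2H3D (1.18 with siGOLM1-1), HIST1H2BF (1.65 and 0.97) and HIST1H2BO (1.18 and 1.23) were called too, but reached that level in only 1, 2 and 1 of the 4 controls and were kept largely through knockdown libraries, so these calls are likewise given as a description. The remaining 8 tested members were called in neither comparison, HIST1H3B, HIST4H4, HIST2H2BC, HIST2H2BD, HIST1H2BL, HIST1H2AK, HIST1H4I and HIST1H1E, with log2 fold changes from -0.35 to 0.83. HIST2H2BC and HIST2H2BD overlap each other, and RefSeq gives them as H2BC20P and H2BC19P, symbols whose final P marks a pseudogene. The rule on PS did not leave them out, so they are counted among the 13 tested H2B genes.

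The 28 untested members are most of the H1, H2A, H3 and H4 genes of the set: 3 of 5, 7 of 13, 6 of 10 and 6 of 10, with 6 of 19 H2B genes. Their summed level was 2.04, 1.66, 1.63 and 1.39 CPM in the controls, 1.61, 2.05, 1.68 and 1.97 with siGOLM1-1, and 1.80, 1.30, 1.62 and 1.41 with siGOLM1-2. The 3 groups overlapped, and the ratios of the means were 1.09 and 0.91. No difference in a single one of these genes was tested. HIST1H4C, an H4 gene, was the highest of them at a mean of 0.142 CPM.

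Genes that make and end histone mRNAs were mostly called lower with siGOLM1-1. Of 19 genes of the histone mRNA machinery, 2 were called higher and 13 lower with siGOLM1-1, and 2 higher and 6 lower with siGOLM1-2, with medians of -0.36 and -0.26. The lower calls are 68.4% and 31.6% of the list, against 23.8% and 23.2% over all genes, so the siGOLM1-2 share is near the background. SLBP, the stem-loop binding protein, was at 51.3 to 54.4 CPM in the controls, 40.5 to 45.6 with siGOLM1-1 and 39.6 to 44.3 with siGOLM1-2, and fell by 0.30 and 0.34 on the log2 scale (adjusted p = 0.00152 and 0.00071). CDK2, the kinase of cyclin E, was called lower with both, at log2 -1.54 and -0.47. NPAT was called lower with siGOLM1-1 at -0.60 and not with siGOLM1-2 at -0.38 (adjusted p = 0.0580). LSM10, a part of the U7 particle that guides cutting after the stem-loop, went in opposite directions, -0.86 and 0.40, both called, while its partner LSM11 was called lower with siGOLM1-1 alone (-1.01, against -0.27 not called). Cyclin E2, CCNE2, was called lower with siGOLM1-2 alone (-1.77, against -0.08 not called).

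Most genes of DNA replication on the list were called lower with both siRNAs. Of 23 S phase genes, none was called higher, and 22 were called lower with siGOLM1-1 and 21 with siGOLM1-2, or 95.7% and 91.3%, against 23.8% and 23.2% over all genes. The median log2 fold changes were -0.81 and -0.71. MCM3, a part of the replicative helicase, was at -1.44 and -0.71, and MCM6, of the same complex, at -1.06 and -0.67. GINS2, another helicase part, was at -1.19 and -0.38, and the S phase activator E2F1 at -1.04 and -0.31, all called. PCNA, the sliding clamp of DNA polymerase, was not called with siGOLM1-1 (-0.13, adjusted p = 0.393) or with siGOLM1-2 (-0.21, adjusted p = 0.185).

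Among 8 genes of cell cycle exit, 5 were called higher and 2 lower with siGOLM1-1, and 2 higher and 1 lower with siGOLM1-2, with medians of 0.76 and -0.06. The higher calls are 62.5% and 25.0% of the list, against 23.7% and 21.8% over all genes, so the siGOLM1-2 share is near the background, as are the 25.0% lower with siGOLM1-1. BTG2, a growth-restraining gene, was called higher with both at log2 2.11 and 1.22, and BTG1 at 0.67 and 0.39. CDKN1A, which encodes the inhibitor p21, was called higher with siGOLM1-1 (0.93) and not with siGOLM1-2 (0.09), and CCNG2 likewise (0.86 and 0.01). For both genes the siRNAs differed from each other, by 0.84 (adjusted p = 5.7e-07 and 3e-06).

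Replacement histones are also made outside S phase, mostly from mRNAs with ordinary poly(A) tails. Of 12 listed, 11 were tested. Calls with siGOLM1-1 were 6 higher and 2 lower, and with siGOLM1-2 none higher and 7 lower, with medians of 0.23 and -0.26. As shares these are 54.5% higher and 18.2% lower with siGOLM1-1 and 63.6% lower with siGOLM1-2, beside the 23.7%, 23.8% and 23.2% over all genes. The linker histone gene H1FX was at 0.74 with siGOLM1-1 and -0.55 with siGOLM1-2, and H3F3A, which encodes H3.3, at 0.50 and -0.18, all called. H2AFZ, which encodes H2A.Z, was called lower with both at -1.09 and -0.76. H2AFY2, a macroH2A gene, was called higher with siGOLM1-1 alone (0.64, against 0.06 not called). Of 18 histone chaperones, 4 were called higher and 10 lower with siGOLM1-1, and 2 higher and 10 lower with siGOLM1-2, with medians of -0.48 and -0.37. The lower calls are 55.6% of the chaperones with each siRNA, against 23.8% and 23.2% over all genes, and the higher calls 22.2% and 11.1%, against 23.7% and 21.8%. CHAF1B and CHAF1A, which place new H3 and H4 behind the replication fork, were called lower with both, at -1.31 and -1.12 and at -0.90 and -0.67. SSRP1, of the FACT complex, was lower at -0.77 and -0.66, and ANP32E, which removes H2A.Z, was at 0.50 and -0.70, both called.

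RNAs that lack a poly(A) tail give a measure of how much tail-less RNA a library holds. Of 15 listed, 6 were tested. The summed level of the 15 ran from 14.4 to 28.5 CPM in the controls, with only replicate 1 above 15, from 14.2 to 30.8 with siGOLM1-1 and from 24.0 to 39.5 with siGOLM1-2. The ranges of all 3 groups overlapped. None of the 6 was called with siGOLM1-1. With siGOLM1-2, RPPH1, RN7SL1 and RN7SL2 were called higher, at 0.98, 0.71 and 0.87, and RN7SK, RMRP and SNORD3A were not called, at 0.76, 0.60 and -0.07. The higher calls are 0% of the 6 with siGOLM1-1 and 50% with siGOLM1-2, against 23.7% and 21.8% over all genes. The part of tail-less RNA in the histone results was not tested. In the controls, replicate 1 had both the highest tail-less sum, 28.5 CPM against 14.4 to 14.9, and the highest histone sum, 132 CPM against 109 to 127. With siGOLM1-1 the 2 libraries with the higher tail-less sums, 26.4 and 30.8 CPM, had histone sums of 238 and 247 CPM, and the 2 with the lower, 14.2 and 16.8, had 238 and 246. With siGOLM1-2 the tail-less sums were 39.5, 24.0, 31.1 and 24.6 CPM, beside histone sums of 215, 219, 216 and 235 CPM.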

How the data were processed

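RNA of 12 A549 libraries was sequenced in paired-end mode. Per the submitters' processing notes, the authors used bcl2fastq 2.20, STAR 2.7.3 and DESeq2 1.24.0 with the build hg19. For the read counter, its annotation and its use of strand, the entry is: not given in the sources used here. The deposited table holds raw counts per gene, and per-siRNA tables and the authors' result tables were not used. Members and gene lists were chosen with earlier results of these data known. Counts of all 57773 genes entered edgeR 4.0.16 in R 4.3.3, with filterByExpr (17532 genes kept), TMM factors from 0.938 to 1.06 and 1 robust quasi-likelihood fit of all 12 libraries with 9 residual degrees of freedom. The common biological coefficient of variation was 0.146. P-values were adjusted by Benjamini-Hochberg over all genes tested and called under 0.05; every adjusted p of the report comes from this edgeR test. The fit was tested on simulated counts. Per-library values were written out for the 12 members with the highest mean CPM and the 4 with the smallest p per comparison, and lists were named by at most 4 genes of smallest p, with SLBP, NPAT and the tail-less RNAs. PCNA, called with neither siRNA, was named in addition to the 4 S phase genes. HIST2H2AC and HIST3H2BB were added after their values were seen. GENCODE 29 and RefSeq tables on GRCh38 were matched by gene, with 53 of 57 members matched to a RefSeq symbol and 46 to a promoter. Alternatives were 2 other scalings, DESeq2 1.42.0, 2 filters, a replicate block, 2-group fits, each control pair and leaving out each library.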

Additional observations from a re-analysis of the deposited data

Results flagged for a closer look

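HIST1H4H in the siGOLM1-1 group had 1 library apart from the rest: replicate 1 was at 4.30 CPM, and the other 3 lay between 3.57 and 3.68 CPM. The gap over the group's range was 0.838, above Dixon's critical value for 4 samples. The rule was applied to 36 groups of 4 libraries, the 12 members printed by library in 3 groups. Chance flags about 1 in 20 such groups, or 1.8 of 36, and 1 was flagged.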

How the results depend on the processing

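Each result was recomputed under 21 alternatives, 12 of which left out 1 library. Leaving out 1 library gave 13 to 18 members called higher and 2 lower with siGOLM1-1 (17 and 2), 10 to 16 higher and 1 lower with siGOLM1-2 (15 and 1), and 4 to 6 higher and 4 to 5 lower for siGOLM1-1 against siGOLM1-2 (4 and 4). The lowest, 10, came without siGOLM1-2 replicate 2. With a minimum of 1 CPM in 4 libraries only 14 members were tested, 11 were called higher and 1 lower with siGOLM1-1, and 0 lower with siGOLM1-2, since HIST2H2AC was not tested there. Against control replicates 1 and 2 alone, 11 were called higher with siGOLM1-1. Over all alternatives, 9 to 13 of the 14 well measured members were called higher with siGOLM1-1 and 10 to 14 with siGOLM1-2. The shares of all genes called were not counted for the alternatives. Of 48 results for 16 named members, 33 kept their direction and call throughout, calls were lost somewhere for 5 and gained for 8. A direction reversed for 2 differences between the siRNAs, neither of them called. That of HIST1H3H, 0.0019, was -0.0045 with RLE factors, -0.13 with library totals, -0.0056 with DESeq2, -0.012 with the 1 CPM filter, -0.028 with only the compared groups, -0.0041 against control replicates 3 and 4, and from -0.087 to 0.097 with a library left out. That of HIST1H2AI, -0.03, ran from -0.22 to 0.083 with a library left out. The cause was not tested. The HIST1H3H calls were lost without control replicate 2, 3 or 4, and further without siGOLM1-1 replicate 1, 3 or 4 or siGOLM1-2 replicate 1 or 3 for siGOLM1-1, and without siGOLM1-1 replicate 3 or siGOLM1-2 replicate 1, 2 or 3 for siGOLM1-2 (ranges 0.34 to 0.41 and 0.28 to 0.46). With siGOLM1-2, that of HIST3H2A was lost without any control, siGOLM1-1 replicate 4 or siGOLM1-2 replicate 2, 3 or 4 (0.42 to 0.56), and that of HIST1H2AI without control replicate 1, 2 or 4, siGOLM1-1 replicate 3 or siGOLM1-2 replicate 1, 2 or 3 (0.53 to 0.82). Calls were gained with siGOLM1-1 by HIST1H2BJ without control replicate 1 (0.52) or siGOLM1-1 replicate 2 (0.47), and with siGOLM1-2 by HIST1H2AG without control replicate 2 (0.44), siGOLM1-1 replicate 1 (0.37) or siGOLM1-1 replicate 2 (0.37). HIST1H2AI was called with siGOLM1-1 without siGOLM1-1 replicate 2 (0.74) or 4 (0.72) or siGOLM1-2 replicate 4 (0.63). Differences between the siRNAs were called for HIST1H2BC without control replicate 3 (0.35) or siGOLM1-2 replicate 4 (0.47), for HIST3H2A without siGOLM1-1 replicate 1 (0.54) or 3 (0.51), for HIST2H2AC without siGOLM1-2 replicate 1 (0.58), and for HIST1H2BN without control replicate 2 or 4, siGOLM1-1 replicate 1 or siGOLM1-2 replicate 1 (-0.68 to -0.53). Same-numbered replicates were checked for pairing by the correlation of their deviations, which was over 0.1 in 5 of 12 pairs (-0.26 to 0.43), and 4 of 12 libraries correlated best with their own number, so the numbers were not taken as pairs. With the replicate number as a block, 18 members were called higher and 2 lower with siGOLM1-1, 13 and 1 with siGOLM1-2, and 4 and 4 between the siRNAs. The 28 untested members had at most 15 counts per library, and the cause of their low counts was not tested.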
